A study of Homo sapiens with 20 samples.

Results

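The genes described here encode the working parts of the lysosome: 48 genes in all, of 50775 features in the count tables, chosen by symbol from a list of acid hydrolases, luminal helper proteins, lysosomal membrane proteins and subunits of the vacuolar proton pump (V-ATPase). All 48 passed the filter on low counts, among 16698 genes tested. They comprise 26 hydrolases and luminal proteins, 7 membrane proteins and 15 pump subunits. RNA was sequenced from 5 established human cancer cell lines, with torkinib (PP242), which competes with ATP at the MTOR kinase, or untreated, with 2 libraries per group and 20 in all. Torkinib was given for 72 h at 10 µM to 94T778 (well differentiated liposarcoma), at 4 µM to A375 and SKMEL28 (melanoma), at 0.8 µM to SKBR3 and at 4 µM to AU565 (breast cancer). The labels give the untreated groups no time point and name no vehicle. Each tumour type is represented by 1 or 2 lines, and doses had been picked to stop the cell cycle while sparing viability, so dose and line cannot be told apart except among A375, SKMEL28 and AU565.

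Lysosomes degrade proteins, glycans, lipids and nucleic acids with enzymes that work at acid pH. The pump that acidifies them has a membrane-embedded V0 sector, which carries protons, and a cytosolic V1 sector, which splits ATP. MTOR complex 1 is activated on the lysosomal surface, where it phosphorylates the transcription factors TFEB, TFE3 and MITF and keeps TFEB and TFE3 out of the nucleus; these factors bind the E-box-like sequence TCACGTGA in the promoters of many lysosomal genes.

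Counted reads per library were 4040023 to 9737903. Levels are normalised CPM, the counts of a library scaled to a total of 1000000, and a change is the log2 ratio of torkinib to untreated cells with its standard error (SE); a gene was called where edgeR's quasi-likelihood test gave a Benjamini-Hochberg adjusted p under 0.05 over all genes tested. The members were more deeply counted than most genes, with a median of 90.6 CPM over all libraries against 19.9 CPM for all genes tested, and 45 of 48 stood above the median gene; the part of depth in the counts of calls below was not tested. Lineage markers were higher in the lines of their label than in the others, though melanocyte genes were much lower in A375 than in SKMEL28. The sum of 8 genes of the 12q amplicon of liposarcoma was 13254 to 13612 CPM in treated and 13893 to 14102 CPM in untreated 94T778, and at most 1186 CPM in any other library. The sum of 8 melanocyte genes was 10821 to 10984 CPM in treated and 7905 to 8318 CPM in untreated SKMEL28, but only 698 to 755 CPM in treated and 653 to 712 CPM in untreated A375. It was at most 35.5 CPM in any library of 94T778, SKBR3 and AU565. The sum of 10 luminal breast genes was 14607 to 14736 CPM in treated and 22912 to 23821 CPM in untreated SKBR3, and 11792 to 12416 CPM in treated and 17990 to 18007 CPM in untreated AU565. Macrophage genes summed to at most 45.6 CPM over 10 genes, with AIF1, C1QA and C1QB at 0 in all 20 libraries. A375 untreated replicate 1 had counts of 14 genes specific to 94T778, at a median of 1.84% of their level there, against 0.177% in replicate 2. SKBR3 untreated replicate 2 had counts of 15 genes specific to SKMEL28, at a median of 0.327% of their level there. That median was 0.0402% in SKBR3 untreated replicate 1 and 0 in both treated SKBR3 libraries. The next highest such median was 0.270%, of SKMEL28 genes in A375 untreated replicate 1. The untreated SKBR3 libraries differed from each other most, with a chi-square per gene of 11.1 against 1.34 to 3.15 in the other groups and with 7.63% and 4.44% of counts from mitochondrial genes. The test shares its estimate of a gene's spread over all groups, so SEs and p-values for SKBR3 may be too small.

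Promoter sequences could be matched for 33 of the 48 genes in a RefSeq table of the build GRCh38.p14, each 300 bases long, from 250 bases before to 50 after the annotated start. The motif TCACGTGA, which reads the same on both strands, occurred in 8 of the 33 (24.2%), against 344 of 35116 promoters of the table (0.98%). The shorter core CACGTG, contained in it, occurred in 13 of 33 (39.4%), against 2548 of 35116 (7.26%). The motif was looked for because it is known from promoters of lysosomal genes, so its excess here is not an independent result. The 8 genes were LAMP1, CTSA, GAA, MCOLN1, CLN3, GALNS, ATP6V0D1 and ATP6V1G1. The 120 bases before the start are shown for 4 of them, since each holds the motif and yet their transcripts took different courses; capitals mark TCACGTGA. GAA lies at chr17:80101461-80101580 on the plus strand, ATP6V1G1 at chr9:114587649-114587768 on the plus strand, ATP6V0D1 at chr16:67481158-67481277 on the minus strand and LAMP1 at chr13:113297119-113297238 on the plus strand.
GAA: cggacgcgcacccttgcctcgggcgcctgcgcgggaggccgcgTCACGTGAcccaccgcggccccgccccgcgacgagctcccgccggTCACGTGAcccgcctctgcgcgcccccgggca
ATP6V1G1: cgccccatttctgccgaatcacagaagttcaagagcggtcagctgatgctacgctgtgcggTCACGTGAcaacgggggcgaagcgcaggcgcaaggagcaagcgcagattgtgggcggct
ATP6V0D1: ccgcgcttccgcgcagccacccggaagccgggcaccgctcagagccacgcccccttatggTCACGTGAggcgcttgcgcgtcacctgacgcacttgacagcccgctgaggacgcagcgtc
LAMP1: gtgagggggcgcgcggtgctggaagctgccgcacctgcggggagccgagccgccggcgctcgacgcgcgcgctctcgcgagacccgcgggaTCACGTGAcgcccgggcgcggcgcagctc
GAA carries the motif at 2 places, the farther one beginning at position -77 from the start. LAMP1 also has it at 2 places, one beginning at -29 and shown, the other beginning at -2 and running past the start, so that the stretch shown cuts it off. ATP6V1G1 and ATP6V0D1 carry it at nearly the same distance, at -59 and -60. On the average of the 5 lines GAA rose (log2 change 0.67, SE 0.05, adjusted p = 4.65e-15) and ATP6V1G1 rose (log2 change 0.36, SE 0.04, adjusted p = 1.11e-10), whereas ATP6V0D1 fell (log2 change -0.41, SE 0.05, adjusted p = 2.76e-09) and LAMP1 fell slightly (log2 change -0.10, SE 0.04, adjusted p = 0.0243); these are edgeR values. The LAMP1 call was lost without AU565 untreated replicate 1 (0.0539) or SKBR3 untreated replicate 2 (0.0745), where here and below the number after a left-out library is the adjusted p without it. Single lines went against these averages. GAA was called lower in SKBR3 (-0.45), ATP6V0D1 higher in A375 (0.27) and LAMP1 higher in SKBR3 (0.19). The last 2 of these calls were lost without single libraries, as given below. ATP6V1G1 was called lower in 0 lines. Binding was not measured. These 4 genes were picked for display after their values were seen.

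With torkinib, more lysosomal genes were called higher than lower in 94T778 and A375, and more were called lower than higher in both breast lines. Called in either direction were 33 of 48 in 94T778 (47.5% of all genes tested), 34 in A375 (42.8%), 30 each in SKMEL28 (44.0%) and SKBR3 (51.3%), 34 in AU565 (55.6%) and 34 on the average of the lines (56.5%). In 94T778, 23 of 48 were called higher (23.8% of all genes tested) and 10 lower (23.8%). In A375, 26 were higher (18.5%) and 8 lower (24.3%). In SKMEL28, 17 were higher (20.4%) and 13 lower (23.7%), so the direction was mixed there. SKBR3 had 11 higher (24.6%) and 19 lower (26.7%), and AU565 had 11 higher (26.9%) and 23 lower (28.6%). On the average of the lines, 18 were higher (28.4%) and 16 lower (28.1%). The median log2 change of the 48 was 0.22 in 94T778 and 0.28 in A375, close to 0 in SKMEL28 at 0.01, and -0.19 in either breast line, while the median over all genes tested lay within 0.02 of 0 in each line. Of the 161 calls in single lines, 115 held when any 1 library was left out. The count of higher genes in A375 dropped to 17 without torkinib replicate 1, the one in SKBR3 to 7 without torkinib replicate 2, and the one in AU565 to 7 without untreated replicate 1. Without A375 untreated replicate 1, the library with counts of 94T778 genes, A375 had 23 higher and 6 lower. SKBR3 had 8 higher and 20 lower without untreated replicate 1, and 10 and 18 without untreated replicate 2. Against the shares of all genes above, the 8 genes whose promoter held TCACGTGA counted 4 called higher and 1 called lower with torkinib in 94T778, where the 25 matched genes without it held 12 and 6. A375 had 5 and 0 with the motif against 13 and 5 without it, and SKMEL28 had 4 and 3 against 8 and 7. SKBR3 had 1 and 4 with the motif against 3 and 11 without it, and AU565 had 2 and 4 against 4 and 15. In bulk RNA, fewer cells of a kind and less RNA per cell cannot be told apart.

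**Figure D1:**
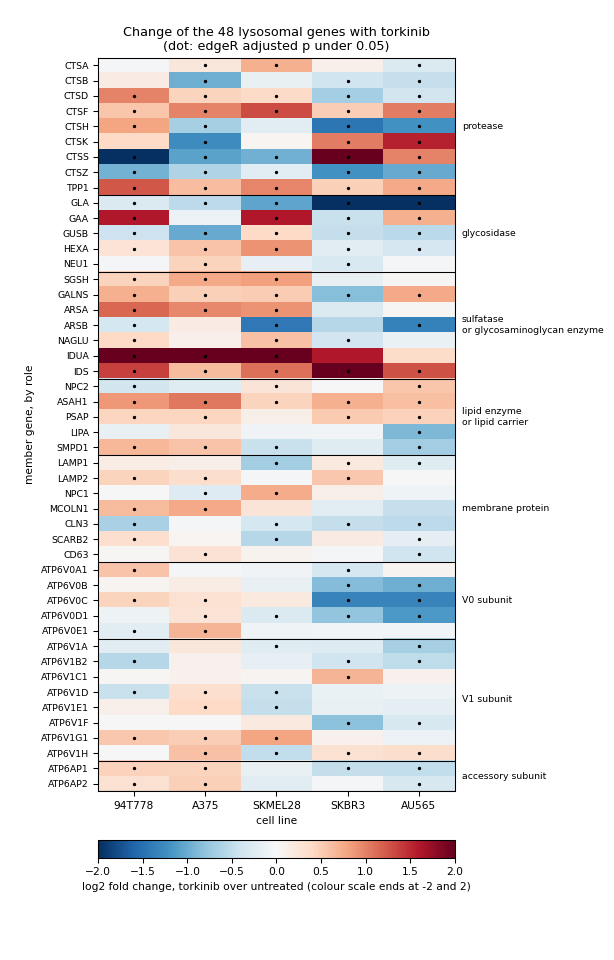
Log2 fold change, torkinib over untreated, of the 48 genes (down the page, grouped by role) in the 5 lines (across); red is higher with torkinib, blue lower, colours end at -2 and 2, and a dot marks an adjusted p under 0.05. The columns of SKBR3 and AU565 are mostly blue in the V0 block, where 4 and 3 of 5 genes were called lower, and TPP1, ASAH1, CTSF and IDS are red across all lines.

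The pump subunits had a lower median change than the remaining 33 genes in 4 of the 5 lines. The counts below stand beside 18.5 to 26.9% of all genes tested called higher per line and 23.7 to 28.6% called lower. In A375, 9 of 15 pump subunits were called higher and 0 lower, against 17 higher and 8 lower of the other 33, and the class medians were close, 0.31 and 0.23 on the log2 scale. In 94T778, the pump had 5 higher and 3 lower with a median of 0.02, against 18 higher and 7 lower with a median of 0.40 for the others. In SKMEL28, only 1 pump subunit was called higher and 5 lower with a median of -0.15, while 16 of the others were higher and 8 lower with a median of 0.26. Both classes leaned downward in the breast lines. The pump had 2 higher and 7 lower in SKBR3 (median -0.26) and 1 higher and 8 lower in AU565 (median -0.31), and the others had 9 higher and 12 lower in SKBR3 (median -0.15) and 10 higher and 15 lower in AU565 (median -0.14). The pump median minus that of the others was most negative in SKMEL28 (-0.41) and 94T778 (-0.37). It was smaller in AU565 (-0.18) and SKBR3 (-0.12), and positive in A375 (0.08). A like difference, taken per library on deviations from the untreated mean, had a pooled SD of 0.0350 between replicates. Its SD in single groups ran from 0.00226 to 0.0958, and the largest exceeded the A375 difference. The difference in A375 shrank to 0.0182 without untreated replicate 1 and to 0.0221 without untreated replicate 2. In SKBR3 it was -0.0633 without untreated replicate 2 and -0.0706 without torkinib replicate 2, and in AU565 it was -0.0651 without torkinib replicate 2 and -0.0832 without untreated replicate 2. No test was made over the classes, since the members share libraries and were chosen as a list.

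**Figure D2:**
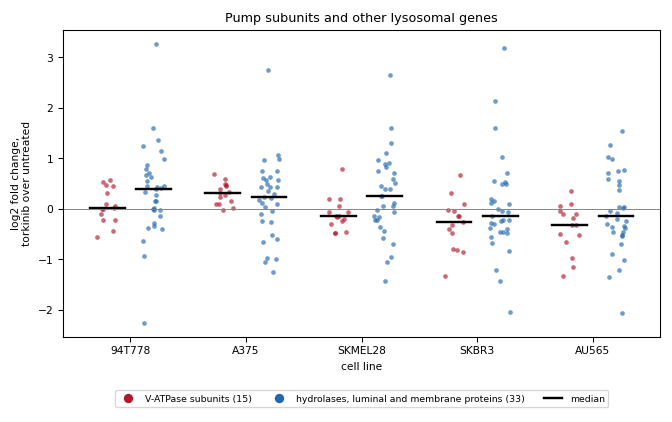
Log2 fold change, torkinib over untreated (vertical), of each gene by cell line (horizontal), with the 15 pump subunits in red, the other 33 genes in blue and class medians as black bars. The red bar lies below the blue one in 94T778, SKMEL28, SKBR3 and AU565, and slightly above it in A375, at 0.31 against 0.23.

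Of all 48 genes, 4 were called higher in all 5 lines (2.26% of all genes tested) and 2 lower in all 5 (4.62%), and each of the 6 is a hydrolase. TPP1, the tripeptidyl peptidase mutated in a childhood form of neuronal ceroid lipofuscinosis, reached 560.3 and 593 CPM with torkinib, against 246 and 239 CPM untreated in 94T778. In SKMEL28 it reached 698 and 692 CPM with torkinib, against 343 and 364 CPM untreated. In A375 the values were 154 and 155 CPM with torkinib, against 103 and 98.5 CPM untreated. The treated libraries of TPP1 lay above the untreated ones in these lines and also in SKBR3 (111 and 107 CPM with torkinib, against 70.7 and 84.4 CPM untreated) and AU565 (166 and 171 CPM with torkinib, against 98.6 and 102 CPM untreated). Over the lines TPP1 rose by 0.81 in log2 units (SE 0.04, edgeR adjusted p = 3.49e-21).

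IDS, iduronate 2-sulfatase, which removes sulfate from dermatan and heparan sulfate, changed most in SKBR3, where it counted 203 and 201 CPM with torkinib, against 42.2 and 49.4 CPM untreated. In 94T778 it counted 413 and 389 CPM with torkinib, against 159 and 152 CPM untreated. Its smallest rise was in A375, with 96.2 and 87.6 CPM with torkinib, against 64.7 and 54.9 CPM untreated. SKMEL28 had 223 and 214 CPM with torkinib, against 97.2 and 105 CPM untreated, and AU565 233 and 230.2 CPM with torkinib, against 98.3 and 93.7 CPM untreated, again without overlap between groups. The changes were 2.13 in SKBR3 (SE 0.09, adjusted p = 1.45e-20) and 0.63 in A375 (SE 0.09, adjusted p = 8.27e-07), and the average of 1.30 (SE 0.04, adjusted p = 2.46e-26) had the smallest edgeR p of the 48. IDS has 1 named pseudogene, so part of its reads may be split.

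ASAH1, acid ceramidase, which cleaves ceramide to sphingosine, counted 62.1 and 65.5 CPM with torkinib, against 34.3 and 26.9 CPM untreated in A375, its largest rise. In SKMEL28, where its untreated level was highest, it counted 913 and 903 CPM with torkinib, against 654 and 677 CPM untreated. The values were 173 and 171 CPM with torkinib, against 94.2 and 94.9 CPM untreated in 94T778. They were 198 and 207 CPM with torkinib, against 107 and 139 CPM untreated in SKBR3 and 298 and 290.5 CPM with torkinib, against 196 and 192 CPM untreated in AU565, and in no line did the groups overlap. ASAH1 rose by 0.74 on the average (SE 0.04, edgeR adjusted p = 1.03e-17). CTSF, the cysteine protease cathepsin F, was the fourth such gene, with its largest change in SKMEL28 (1.30), then AU565 (1.02), A375 (0.995), 94T778 (0.55) and SKBR3 (0.50). Its SKBR3 call was lost without torkinib replicate 2 (0.108) or untreated replicate 2 (0.126).

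GLA, alpha-galactosidase A, which removes terminal galactose from glycolipids and is deficient in Fabry disease, fell in every line and most in the breast lines. In SKBR3 it counted 7.14 and 7.97 CPM with torkinib, against 29.4 and 33.1 CPM untreated. In AU565 it counted 6.65 and 6.88 CPM with torkinib, against 25.9 and 31.4 CPM untreated. The fall was close to 4-fold in both, with torkinib at 0.242 and 0.239 of the untreated level (log2 changes -2.04 and -2.07, adjusted p = 4.70e-13 and 2.21e-13, edgeR). In SKMEL28 it had 45.3 and 46.7 CPM with torkinib, against 96.1 and 95.1 CPM untreated. In A375 it had 14.6 and 12.6 CPM with torkinib, against 20.2 and 19.4 CPM untreated. The smallest change was in 94T778, with 32.9 and 27.1 CPM with torkinib, against 34.8 and 38.6 CPM untreated, where the call was lost without torkinib replicate 2 (0.398) or untreated replicate 2 (0.269); the A375 call was lost without torkinib replicate 2 (0.0587). CTSZ, the carboxypeptidase cathepsin Z, counted 137 and 130.0 CPM with torkinib, against 314 and 302 CPM untreated in SKBR3. In 94T778 it counted 306 and 289 CPM with torkinib, against 568 and 574 CPM untreated. Its groups were apart in every line, with 187 and 182 CPM with torkinib, against 289.6 and 272 CPM untreated in A375, 338 and 328 CPM with torkinib, against 392 and 389 CPM untreated in SKMEL28 and 57.4 and 52.97 CPM with torkinib, against 104 and 118 CPM untreated in AU565. On the average of the lines CTSZ changed by -0.80 (SE 0.03, edgeR adjusted p = 3.44e-21), and the small SKMEL28 change of -0.23 lost its call without torkinib replicate 2 (0.0848) or untreated replicate 1 (0.051).

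**Figure D3:**
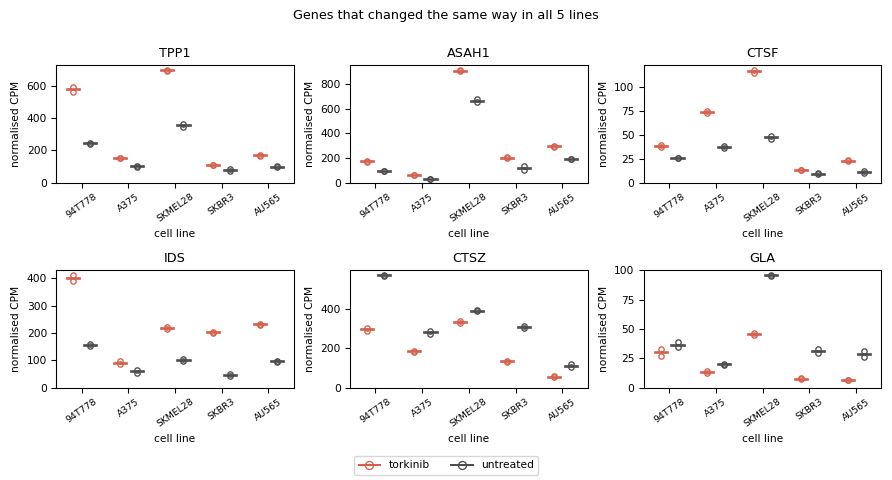
Normalised CPM (vertical, from 0, a separate scale per gene) of the 4 genes called higher and the 2 called lower in all 5 lines, by cell line (horizontal), with torkinib libraries in red to the left of untreated libraries in grey; circles are libraries and bars group means of 2. IDS reached 203 and 201 CPM with torkinib in SKBR3, against 42.2 and 49.4 CPM untreated, and GLA fell most in SKBR3 and AU565.

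The response differed among the 5 lines for 47 of the 48 genes (edgeR F test of the 5 changes; 68.4% of all genes tested), IDUA being the exception (adjusted p = 0.404). Among A375, SKMEL28 and AU565, which had the same dose, it differed for 43 (52.5%). The genes called higher in one line and lower in another numbered 26 of 48 (24.0%), 9 of them pump subunits. The lines also differed before treatment: all 48 genes differed among the untreated groups (96.3%).

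Among the 9 proteases, 4 were called higher in each line. Called lower were 5 each in A375 and AU565, 4 in SKBR3, and 2 each in 94T778 and SKMEL28. Per line, 18.5 to 26.9% of all genes tested were called higher and 23.7 to 28.6% lower. CTSD, the aspartic protease cathepsin D, split the breast lines from the rest. It counted 471 and 527 CPM with torkinib, against 259 and 243 CPM untreated in 94T778. It counted 134 and 109 CPM with torkinib, against 91.3 and 88.8 CPM untreated in A375 and 1364 and 1288 CPM with torkinib, against 1072 and 953 CPM untreated in SKMEL28, again higher with torkinib. In SKBR3 it counted 1534 and 1476 CPM with torkinib, against 2349 and 2464 CPM untreated, and in AU565 1418 and 1449 CPM with torkinib, against 1852 and 1837 CPM untreated, lower with torkinib and without overlap. The changes were 0.99 in 94T778 (SE 0.08, adjusted p = 2.16e-12) and -0.68 in SKBR3 (SE 0.08, adjusted p = 3.80e-09), and the difference among lines had an edgeR adjusted p of 1.65e-14. The A375 call was lost without torkinib replicate 1 (0.0563).

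CTSH, cathepsin H, an aminopeptidase, followed a similar split without A375 and SKMEL28 on the higher side. It counted 67.6 and 68.6 CPM with torkinib, against 42.8 and 36.4 CPM untreated in 94T778. In SKBR3 it counted 16.3 and 13.1 CPM with torkinib, against 38.9 and 39.8 CPM untreated, and in AU565 11.6 and 12.1 CPM with torkinib, against 26.8 and 28.6 CPM untreated. It was thus higher in treated 94T778 (change 0.78, adjusted p = 2.84e-07) and lower in treated SKBR3 and AU565 (-1.44 and -1.21, adjusted p = 2.00e-10 and 2.13e-08, edgeR). In A375, with 4.41 and 7.37 CPM with torkinib, against 10.9 and 7.15 CPM untreated, the groups overlapped and the call was lost without torkinib replicate 1 (0.492) or untreated replicate 1 (0.362). SKMEL28 had 78.5 and 79.00 CPM with torkinib, against 90.8 and 92.5 CPM untreated, a change of -0.22 that missed the threshold (adjusted p = 0.0635).

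CTSS, cathepsin S, an elastin-degrading protease prominent in antigen-presenting cells, went the other way. In SKBR3 it counted 13.3 and 12.3 CPM with torkinib, against 1.29 and 1.46 CPM untreated. In 94T778 it counted 2.40 and 0.755 CPM with torkinib, against 6.997 and 8.23 CPM untreated. These were a 9.09-fold rise (adjusted p = 1.28e-10) and a change of -2.26 on the log2 scale (adjusted p = 3.41e-07, edgeR), with no overlap of groups in either line. AU565 had 4.56 and 4.98 CPM with torkinib, against 2.12 and 2.74 CPM untreated, A375 2.13 and 2.74 CPM with torkinib, against 6.06 and 4.05 CPM untreated, and SKMEL28 2.40 and 2.30 CPM with torkinib, against 5.08 and 4.30 CPM untreated. Those 3 changes were 0.99, -1.07 and -0.96. All 5 rested on few counts, with 25 counts in treated 94T778, 17 in untreated SKBR3, 40 in untreated AU565, 27 in treated A375 and 39 in treated SKMEL28 as the smaller group. The AU565 call was lost without torkinib replicate 2 (0.0799) or untreated replicate 1 (0.104), the A375 call without torkinib replicate 1 (0.139) or untreated replicate 1 (0.144) and the SKMEL28 call without torkinib replicate 1 (0.063), torkinib replicate 2 (0.0588) or untreated replicate 1 (0.0715). The 10 macrophage genes summed to 20.5 to 26.4 CPM in treated and 45.5 to 45.6 CPM in untreated SKBR3, nearly all of it from CSF1R, and 8 of the 10 had too few reads to test. CTSK, cathepsin K, best known from osteoclasts, counted 212 and 206 CPM with torkinib, against 196 and 209 CPM untreated in SKMEL28, its highest level, with no call. It fell in A375, with 3.35 and 3.37 CPM with torkinib, against 8.56 and 7.63 CPM untreated (change -1.26, adjusted p = 2.73e-05, edgeR). In AU565 the largest called rise of the line rested on 13 counts with torkinib and 6 untreated (ratio 3.03, 95% exact interval 1.07 to 9.72, counting error only), and it was lost without torkinib replicate 1 (0.366), untreated replicate 1 (0.0736) or untreated replicate 2 (0.148). In SKBR3 it had 2.98 and 2.71 CPM with torkinib, against 1.47 and 1.32 CPM untreated, higher with torkinib, a call that was lost without torkinib replicate 1 (0.107), torkinib replicate 2 (0.0821), untreated replicate 1 (0.0686) or untreated replicate 2 (0.146). CTSB, cathepsin B, changed by -0.98 in A375 (adjusted p = 1.87e-12), -0.41 in SKBR3 and -0.46 in AU565, and was not called in 94T778 and SKMEL28 (0.16 and -0.15). CTSA, the serine carboxypeptidase that protects the sialidase, was called higher in SKMEL28 (0.72, adjusted p = 8.76e-10) and A375 (0.23) and lower in AU565 (-0.29); the A375 call was lost without torkinib replicate 1 (0.316), untreated replicate 1 (0.0578) or untreated replicate 2 (0.211).

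The 5 glycosidases, which trim sugars from glycans and glycolipids, were all called lower in SKBR3 (26.7% of all genes tested). In AU565, 3 were lower (28.6%) and 1 higher (26.9%). GAA, acid alpha-glucosidase, which breaks down glycogen and is deficient in Pompe disease, had the smallest p for a difference among lines of the genes with opposite calls (edgeR adjusted p = 5.7e-16). It counted 40.6 and 42.7 CPM with torkinib, against 12.5 and 14.9 CPM untreated in 94T778. It counted 114 and 109 CPM with torkinib, against 38.7 and 35.2 CPM untreated in SKMEL28. These were rises of 3.03-fold and 3.05-fold (adjusted p = 1.54e-12 and 2.72e-16, edgeR). AU565 had 83.6 and 79.2 CPM with torkinib, against 49.8 and 49.3 CPM untreated, also higher with torkinib. SKBR3 had 77.4 and 82.4 CPM with torkinib, against 116 and 104 CPM untreated, lower with torkinib, and A375, with 69.2 and 55.2 CPM with torkinib, against 67.7 and 68.2 CPM untreated, was not called. The 2 breast lines thus had opposite calls (-0.45 and 0.71), at doses of 0.8 and 4 µM.

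HEXA, the alpha subunit of beta-hexosaminidase, deficient in Tay-Sachs disease, counted 524 and 530.2 CPM with torkinib, against 284 and 281 CPM untreated in SKMEL28. It counted 129.9 and 123 CPM with torkinib, against 87.6 and 82.6 CPM untreated in A375 and 155 and 156 CPM with torkinib, against 126 and 132 CPM untreated in 94T778, higher with torkinib in all 3 lines. In the breast lines it was lower, with 125 and 125 CPM with torkinib, against 146 and 146 CPM untreated in SKBR3 and 58.9 and 63.2 CPM with torkinib, against 74.99 and 79.8 CPM untreated in AU565. Its edgeR adjusted p for a difference among lines was 1.75e-12. The change of 0.27 in 94T778 was lost without untreated replicate 1 (0.0588), and that of -0.23 in SKBR3 without torkinib replicate 1 (0.0568) or torkinib replicate 2 (0.0516). GUSB, beta-glucuronidase, with 10 named pseudogenes that may share its reads, was lower in 94T778, A375, SKBR3 and AU565 (-0.41, -1.003, -0.47 and -0.54) and higher in SKMEL28 (0.40), a call lost without untreated replicate 2 (0.115). NEU1, the lysosomal sialidase, was called higher in A375 (0.44) and lower in SKBR3 (-0.30); the A375 call was lost without torkinib replicate 1 (0.246) or untreated replicate 1 (0.0526), and the SKBR3 call without torkinib replicate 2 (0.514) or untreated replicate 2 (0.111).

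Of the 7 sulfatases and other enzymes of glycosaminoglycan breakdown, 6 were called higher in 94T778 (23.8% of all genes tested), 5 in A375 (18.5%) and 6 in SKMEL28 (20.4%), against 1 in SKBR3 (24.6%) and 2 in AU565 (26.9%). The calls of NAGLU in 94T778, of ARSA and GALNS in A375 and of GALNS in AU565 were each lost without 1 library, as given below. IDUA, alpha-L-iduronidase, deficient in Hurler syndrome, was the largest called rise of the 48 in 94T778, A375 and SKMEL28. It counted 34.96 and 40.6 CPM with torkinib, against 3.93 and 3.86 CPM untreated in 94T778. It counted 79.7 and 59.4 CPM with torkinib, against 9.09 and 11.8 CPM untreated in A375. It counted 23.99 and 30.7 CPM with torkinib, against 4.30 and 4.30 CPM untreated in SKMEL28, and in none of the 3 lines did the groups come near each other. The edgeR changes were 3.27 in 94T778 (SE 0.23, adjusted p = 1.44e-14), 2.74 in A375 (SE 0.17, adjusted p = 2.73e-16) and 2.65 in SKMEL28 (SE 0.23, adjusted p = 3.18e-12). In the breast lines it was barely counted, with 6 counts with torkinib, all in replicate 2, and 2 untreated in SKBR3 (ratio 3.25, 95% exact interval 0.581 to 32.9) and 1 count in each AU565 group, so a change there was not detectable at this depth. The average call (adjusted p = 0.0166) was lost, with an adjusted p of 1, without AU565 torkinib replicate 2 or SKBR3 torkinib replicate 2. SLC26A1, a sulfate transporter gene, overlaps the exons of IDUA on the opposite strand, and the strand setting of the counting is not given in the sources used here. Its mean level was 7.69 CPM with torkinib and 2.29 CPM untreated in 94T778, 16.7 CPM with torkinib and 6.21 CPM untreated in A375, and 5.75 CPM with torkinib and 1.75 CPM untreated in SKMEL28. Counted without strand, reads of the 2 genes cannot be told apart.

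ARSB, arylsulfatase B, which removes sulfate from dermatan and chondroitin sulfate, was called higher in 0 of the 5 lines. It counted 25.8 and 25.4 CPM with torkinib, against 70.7 and 67.8 CPM untreated in SKMEL28, the largest called fall of that line. It counted 6.46 and 5.27 CPM with torkinib, against 15.6 and 13.8 CPM untreated in AU565. The changes were -1.43 and -1.35 (adjusted p = 9.10e-13 and 5.83e-07, edgeR), with the groups apart in both. In A375 it had 19.3 and 21.9 CPM with torkinib, against 19.9 and 16.6 CPM untreated and was not called. In SKBR3 it had 5.75 and 5.26 CPM with torkinib, against 5.51 and 10.3 CPM untreated, where the groups overlapped and it was not called, and in 94T778 22.3 and 24.5 CPM with torkinib, against 29.01 and 30.7 CPM untreated, a call lost without torkinib replicate 1 (0.182), untreated replicate 1 (0.0718) or untreated replicate 2 (0.171). ARSA, arylsulfatase A, which acts on sulfatide, rose in 94T778, A375 and SKMEL28 (1.14, 0.96 and 0.90), the A375 call being lost without torkinib replicate 1 (0.148). SGSH, a sulfamidase of heparan sulfate breakdown, rose in the same 3 lines (0.44, 0.75 and 0.83) and was not called in SKBR3 and AU565 (-0.15 and 0.03). GALNS, a sulfatase of keratan sulfate, was higher in 94T778, A375, SKMEL28 and AU565 (0.71, 0.48, 0.51 and 0.76) and lower in SKBR3 (-0.85); its A375 call was lost without torkinib replicate 1 (0.0709) or untreated replicate 2 (0.0559) and its AU565 call without torkinib replicate 2 (0.174) or untreated replicate 1 (0.152). NAGLU, which removes N-acetylglucosamine from heparan sulfate, rose in SKMEL28 (0.58, adjusted p = 3.36e-05, edgeR). Its higher level in 94T778 (0.40) lost the call without torkinib replicate 2 (0.424) or untreated replicate 2 (0.246), and its lower level in SKBR3 (-0.38) lost it without any of 4 libraries, up to an adjusted p of 0.37 without SKBR3 torkinib replicate 2.

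**Figure D4:**
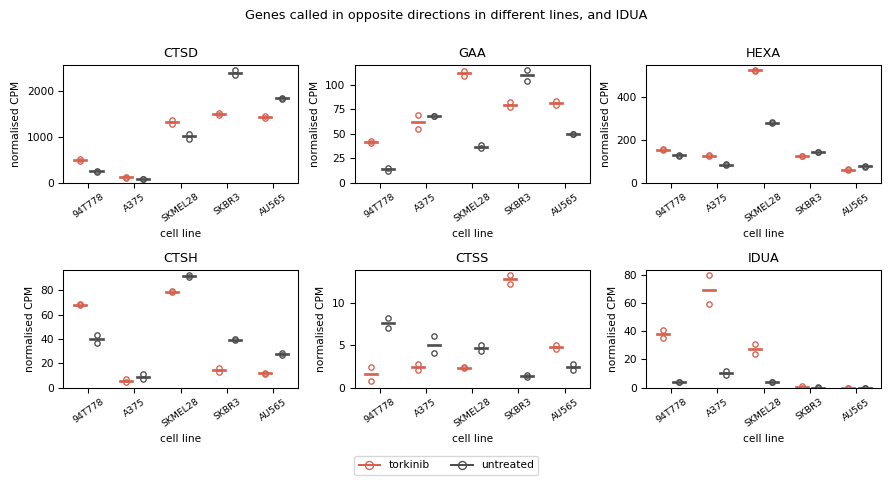
Normalised CPM (vertical, from 0, a separate scale per gene) of CTSD, GAA, HEXA, CTSH, CTSS and IDUA by cell line (horizontal), with torkinib libraries in red to the left of untreated libraries in grey; circles are libraries and bars group means of 2. CTSD and HEXA are higher with torkinib in 94T778, A375 and SKMEL28 and lower in SKBR3 and AU565, CTSS is higher with torkinib in the breast lines, and IDUA lies near 0 in those lines.

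Lipid-handling proteins had no line with a majority of falls. Of 5, A375 had 3 called higher and 0 lower, SKBR3 had 2 and 0, and 94T778 had 3 and 1. SKMEL28 had 2 and 1, and AU565 had 3 and 2. Shares over all genes tested were 18.5 to 26.9% higher and 23.7 to 28.6% lower per line. Besides ASAH1, PSAP, the precursor of the saposins that present sphingolipids to their hydrolases, rose in 4 lines (0.43 in 94T778, 0.43 in A375, 0.52 in SKBR3 and 0.47 in AU565) and was not called in SKMEL28 (0.12, edgeR adjusted p = 0.265). SMPD1, acid sphingomyelinase, was higher in 94T778 and A375 (0.66 and 0.58) and lower in SKMEL28 and AU565 (-0.45 and -0.70); the A375 call was lost without torkinib replicate 1 (0.214). NPC2, which hands cholesterol to the membrane protein NPC1, was lower in 94T778 (-0.37) and higher in AU565 (0.56) and SKMEL28 (0.26), the SKMEL28 call being lost without torkinib replicate 1 (0.0504), torkinib replicate 2 (0.0881) or untreated replicate 2 (0.143). LIPA, the acid lipase for cholesteryl esters and triglycerides, was called in 1 line, lower in AU565 (-0.89, adjusted p = 6.65e-09).

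The 7 membrane proteins had 4 called lower (28.6% of all genes tested) and 0 higher (26.9%) in AU565. They split 3 higher and 1 lower in 94T778 (23.8% and 23.8%) and in A375 (18.5% and 24.3%). The split was 1 and 3 in SKMEL28 (20.4% and 23.7%) and 2 and 1 in SKBR3 (24.6% and 26.7%). LAMP1, one of the abundant glycoproteins that line the lysosomal membrane, counted 164 and 163 CPM with torkinib, against 267 and 265 CPM untreated in SKMEL28. In SKBR3 it counted 281 and 303 CPM with torkinib, against 226 and 285 CPM untreated, where the groups overlapped, and in AU565 169.8 and 165 CPM with torkinib, against 204 and 193 CPM untreated. LAMP1 fell in SKMEL28 (log2 change -0.70, SE 0.08, adjusted p = 6.10e-09, edgeR). The SKBR3 call, for a higher level at an adjusted p of 0.0498, was lost without any of 19 of the 20 libraries, up to an adjusted p of 0.876 without SKBR3 untreated replicate 1, and the AU565 call, for a lower level, without torkinib replicate 2 (0.0751) or untreated replicate 1 (0.0931). 94T778 and A375 had 309 and 294 CPM with torkinib, against 266 and 277 CPM untreated in 94T778 and 193 and 191 CPM with torkinib, against 177 and 176 CPM untreated in A375, with no call.

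LAMP2, its partner, needed for chaperone-mediated autophagy, moved separately from LAMP1. It counted 313 and 317 CPM with torkinib, against 238 and 226 CPM untreated in 94T778. It counted 159 and 167 CPM with torkinib, against 88.5 and 133 CPM untreated in SKBR3 and 129.6 and 145 CPM with torkinib, against 109.9 and 104 CPM untreated in A375. It was higher with torkinib in these 3 lines (0.44, 0.54 and 0.36; edgeR adjusted p = 2.47e-04, 4.56e-05 and 0.00632), the A375 call being lost without torkinib replicate 2 (0.0937) or untreated replicate 2 (0.0545). In SKMEL28, with 754 and 715 CPM with torkinib, against 721 and 779.6 CPM untreated, and AU565, with 174 and 186 CPM with torkinib, against 180.0 and 177 CPM untreated, the groups overlapped. CLN3, a transmembrane protein whose loss causes juvenile neuronal ceroid lipofuscinosis, counted 139 and 120.3 CPM with torkinib, against 181 and 179 CPM untreated in SKBR3. It counted 95.7 and 102 CPM with torkinib, against 143 and 140.5 CPM untreated in AU565 and 14.4 and 15.6 CPM with torkinib, against 22.4 and 24.5 CPM untreated in 94T778. It fell in all 3 (-0.48, -0.52 and -0.64, adjusted p = 4.25e-06, 1.13e-06 and 1.28e-04), and its SKMEL28 fall, to 15.3 and 15.96 CPM with torkinib, against 20.5 and 19.6 CPM untreated, was lost without torkinib replicate 1 (0.156), torkinib replicate 2 (0.0666), untreated replicate 1 (0.111) or untreated replicate 2 (0.0944). In A375 it had 18.9 and 16.2 CPM with torkinib, against 19.2 and 17.3 CPM untreated, with overlapping groups.

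NPC1, the cholesterol exporter, rose in SKMEL28, with 194 and 200.5 CPM with torkinib, against 112 and 123 CPM untreated (change 0.75, edgeR adjusted p = 6.42e-10). In A375 it had 74.1 and 71.8 CPM with torkinib, against 86.3 and 88.8 CPM untreated, a call for a lower level that was lost without torkinib replicate 1 (0.0591), torkinib replicate 2 (0.0857) or untreated replicate 2 (0.093). In the remaining lines it was not called, with 74.5 and 76.3 CPM with torkinib, against 81.2 and 70.2 CPM untreated in 94T778, 106 and 95.6 CPM with torkinib, against 90.9 and 94.3 CPM untreated in SKBR3 and 138 and 149 CPM with torkinib, against 154 and 153 CPM untreated in AU565. Its average call (0.10, adjusted p = 0.0236) was lost without any of 8 libraries, up to an adjusted p of 0.107 without 94T778 untreated replicate 2. MCOLN1, the calcium channel TRPML1, rose in A375, with 21.8 and 19.6 CPM with torkinib, against 10.9 and 13.6 CPM untreated (adjusted p = 2.84e-04), and in 94T778, with 17.9 and 23.4 CPM with torkinib, against 14.2 and 12.4 CPM untreated (adjusted p = 0.00143), the 94T778 call being lost without torkinib replicate 2 (0.0737). It had 27.05 and 25.6 CPM with torkinib, against 20.9 and 22.9 CPM untreated in SKMEL28, 9.92 and 6.37 CPM with torkinib, against 9.37 and 9.37 CPM untreated in SKBR3 and 5.13 and 4.54 CPM with torkinib, against 7.01 and 6.17 CPM untreated in AU565, none of them called. SCARB2, the receptor that carries glucocerebrosidase to lysosomes, was higher in 94T778 (0.34) and lower in SKMEL28 (-0.57) and AU565 (-0.20). The AU565 call was lost without torkinib replicate 2 (0.248), untreated replicate 1 (0.13) or untreated replicate 2 (0.0567). CD63, a tetraspanin of late endosomes, was higher in A375 (0.29) and lower in AU565 (-0.39), the A375 call being lost without untreated replicate 2 (0.0525).

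Of the 5 genes of the proton-carrying V0 sector, 4 were called lower in SKBR3 (26.7% of all genes tested) and 3 in AU565 (28.6%), with 0 higher in either. ATP6V0E1 was not called in either line (-0.05 and -0.05), and ATP6V0A1 was not called in AU565 (0.06). ATP6V0C, the c subunit that forms most of the proton-carrying ring, counted 62.3 and 49.2 CPM with torkinib, against 143 and 137 CPM untreated in SKBR3. It counted 52.1 and 48.6 CPM with torkinib, against 126 and 128 CPM untreated in AU565. Torkinib left it at 0.397 and 0.395 of the untreated level there (log2 changes -1.33 and -1.34, adjusted p = 3.46e-13 and 2.02e-13, edgeR). In 94T778 it counted 64.1 and 80.9 CPM with torkinib, against 59.05 and 47.4 CPM untreated, and in A375 61.5 and 58.3 CPM with torkinib, against 45.98 and 50.9 CPM untreated, higher with torkinib. SKMEL28 had 99.2 and 99.4 CPM with torkinib, against 89.8 and 85.1 CPM untreated, not called. The 94T778 call was lost without torkinib replicate 2 (0.0901) or untreated replicate 2 (0.0833) and the A375 call without torkinib replicate 1 (0.181) or untreated replicate 1 (0.199); ATP6V0C has 4 named pseudogenes. The edgeR adjusted p for its difference among lines was 7.35e-15.

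ATP6V0B, the c'' subunit of the same ring, counted 105 and 103 CPM with torkinib, against 195 and 185 CPM untreated in SKBR3. It counted 51.7 and 54.4 CPM with torkinib, against 106 and 104 CPM untreated in AU565. It fell in both (-0.87 and -0.98, adjusted p = 1.53e-11 and 6.03e-12, edgeR). Outside the breast lines it was not called, with 77.5 and 71.6 CPM with torkinib, against 71.7 and 71.5 CPM untreated in 94T778, 65.3 and 56.8 CPM with torkinib, against 52.4 and 57.8 CPM untreated in A375 and 83.5 and 86.4 CPM with torkinib, against 94.7 and 93.9 CPM untreated in SKMEL28. ATP6V0D1, the d subunit at the base of the stalk, counted 23.8 and 27.1 CPM with torkinib, against 39.3 and 48.6 CPM untreated in SKBR3 and 19.9 and 21.9 CPM with torkinib, against 47.4 and 46.2 CPM untreated in AU565. The changes were -0.79 and -1.15 (adjusted p = 1.37e-06 and 3.28e-10). In SKMEL28 it had 48.1 and 55.9 CPM with torkinib, against 61.5 and 65.03 CPM untreated, a call for a lower level that was lost without torkinib replicate 1 (0.285) or untreated replicate 2 (0.165). In A375 it had 54.2 and 57.3 CPM with torkinib, against 47.6 and 44.5 CPM untreated, higher with torkinib, lost without torkinib replicate 1 (0.0762), torkinib replicate 2 (0.165), untreated replicate 1 (0.0579) or untreated replicate 2 (0.203). It was not called in 94T778, with 93.01 and 106 CPM with torkinib, against 108 and 107 CPM untreated. ATP6V0E1, the small e subunit with 4 named pseudogenes, rose in A375 (0.68, adjusted p = 7.62e-07) and was lower in 94T778 (-0.22), a call lost without torkinib replicate 2 (0.206) or untreated replicate 1 (0.254). ATP6V0A1, an a subunit, rose in 94T778 (0.57, adjusted p = 4.76e-05), and its SKBR3 call (-0.33, adjusted p = 0.0492) was lost without any of 8 libraries, up to an adjusted p of 0.499 without SKBR3 torkinib replicate 2.

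**Figure D5:**
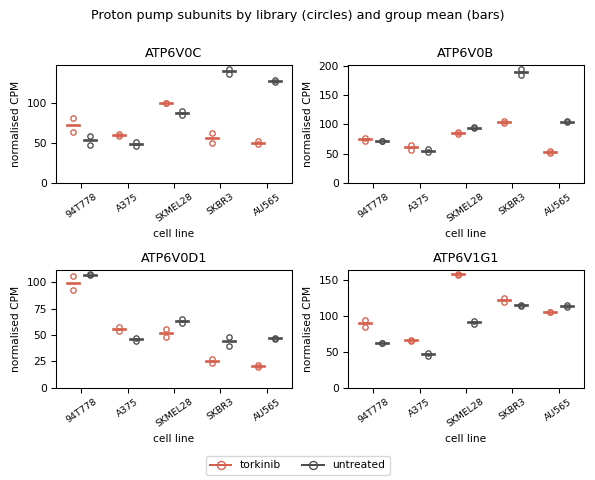
Normalised CPM (vertical, from 0, a separate scale per gene) of the V0 subunits ATP6V0C, ATP6V0B and ATP6V0D1 and the V1 subunit ATP6V1G1 by cell line (horizontal), with torkinib libraries in red to the left of untreated libraries in grey; circles are libraries and bars group means of 2. ATP6V0C, ATP6V0B and ATP6V0D1 are lower with torkinib in SKBR3 and AU565, while ATP6V1G1 is higher in 94T778, A375 and SKMEL28.

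The 8 genes of the V1 sector showed no common direction. A375 had 4 called higher (18.5% of all genes tested) and 0 lower (24.3%), and SKMEL28 had 1 (20.4%) and 4 (23.7%). AU565 had 1 (26.9%) and 3 (28.6%), and 94T778 had 1 (23.8%) and 2 (23.8%). SKBR3 had 2 (24.6%) and 2 (26.7%), near the shares of all genes. ATP6V1G1, the G subunit of the peripheral stalk, counted 157 and 159 CPM with torkinib, against 93.3 and 89.02 CPM untreated in SKMEL28. It counted 94.6 and 84.9 CPM with torkinib, against 61.9 and 61.6 CPM untreated in 94T778 and 66.95 and 64.4 CPM with torkinib, against 44.3 and 48.7 CPM untreated in A375. It rose in these 3 lines (0.79, 0.54 and 0.50, adjusted p = 9.71e-11, 2.28e-06 and 2.69e-05, edgeR) and is the 1 pump subunit called higher in SKMEL28. In SKBR3 it had 124 and 119 CPM with torkinib, against 113 and 116 CPM untreated, and in AU565 105 and 106 CPM with torkinib, against 115 and 113 CPM untreated, not called; it has 5 named pseudogenes. ATP6V1B2, a nucleotide-binding B subunit, counted 89.6 and 82.05 CPM with torkinib, against 127 and 127 CPM untreated in 94T778. It counted 59.1 and 68.8 CPM with torkinib, against 75.7 and 92.3 CPM untreated in SKBR3 and 59.1 and 59.8 CPM with torkinib, against 81.8 and 88.4 CPM untreated in AU565. It fell in all 3 (-0.56, -0.39 and -0.51), and the SKBR3 call was lost without untreated replicate 2 (0.0647). It had 57.1 and 58.3 CPM with torkinib, against 55.3 and 52.9 CPM untreated in A375 and 398 and 399 CPM with torkinib, against 443 and 447 CPM untreated in SKMEL28, not called in either.

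Single V1 subunits diverged within a line. ATP6V1H, a regulatory subunit, was higher in A375, SKBR3 and AU565 (0.59, 0.31 and 0.35) and lower in SKMEL28 (-0.49, edgeR adjusted p = 7.78e-06). Its SKBR3 call was lost without torkinib replicate 2 (0.132) or untreated replicate 1 (0.158) and its AU565 call without untreated replicate 1 (0.102). ATP6V1F, the F subunit of the rotor, fell in SKBR3 and AU565 (-0.83 and -0.32), whereas ATP6V1C1, which joins the peripheral stalk, rose in SKBR3 (0.67, adjusted p = 7.15e-07). ATP6V1A, the ATP-splitting A subunit, fell in AU565 (-0.66, adjusted p = 6.22e-07) and in SKMEL28 (-0.25), the SKMEL28 call being lost without torkinib replicate 2 (0.224), untreated replicate 1 (0.0736) or untreated replicate 2 (0.156). ATP6V1D and ATP6V1E1, of the rotor and the stalk, were both higher in A375 (0.33 and 0.40) and lower in SKMEL28 (-0.45 and -0.48), 2 melanoma lines at the same dose; the A375 call of ATP6V1D was lost without torkinib replicate 1 (0.0503) or untreated replicate 2 (0.124). ATP6AP1, an accessory subunit with a role in pump assembly, rose in 94T778 and A375 (0.46 and 0.45) and fell in SKBR3 and AU565 (-0.48 and -0.49). ATP6AP2, the prorenin receptor, was higher in 94T778 and A375 (0.30 and 0.47) and lower in AU565 (-0.31); its 94T778 call was lost without torkinib replicate 1 (0.0706) or untreated replicate 2 (0.084) and its AU565 call without torkinib replicate 2 (0.112).

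The calls shared by SKBR3 and AU565 are set here beside those shared over all genes tested. The 6 subunits ATP6V0B, ATP6V0C, ATP6V0D1, ATP6V1B2, ATP6V1F and ATP6AP1 were called lower in both, 85.7% of those lower in SKBR3 and 75.0% of those lower in AU565. Of the other members, CTSB, CTSD, CTSH, CTSZ, GLA, GUSB, HEXA and CLN3 were lower in both, 66.7% of those lower in SKBR3 and 53.3% of those lower in AU565. Over all genes tested, 73.7% of those lower in SKBR3 and 68.8% of those lower in AU565 were lower in both. The pump's shares rest on only 7 subunits called lower in SKBR3 and 8 in AU565. With so few genes, no difference from the shares over all genes can be read from them. Called higher in both was 1 pump subunit, ATP6V1H. Of the other members 7 were, 77.8% of those higher in SKBR3 and 70% of those higher in AU565. Over all genes tested those shares were 66.1% and 60.3%. Calls of ATP6V1H and, among the 7, of CTSF, CTSK and CTSS were lost without 1 library, as given above. The ATP6V1B2 call in SKBR3 was lost without 1 library, as given above. Of the 10 luminal breast genes, whose summed level was lower with torkinib, 4 were called higher and 6 lower in each of these lines; their part in the result was not tested. In the melanoma lines, 9 pump subunits were higher in A375 and 1 in SKMEL28, and that 1, ATP6V1G1, was higher in both. It made up 11.1% of those higher in A375, against 42.4% over all genes tested. It made up 100% of those higher in SKMEL28, against 38.5%. These shares rest on 1 gene. Of the other members, 11 were higher in both, 64.7% of those higher in A375 and 68.8% of those higher in SKMEL28. Lower in both were 3, 37.5% in each line, against 46.8% and 48% over all genes tested. A375 calls of CTSA, CTSD, GALNS and ARSA among the 11, and calls of all 3 lower ones, were lost without 1 library, as given above.

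Lysosomal genes outside the 48 did not repeat every pattern above. A375 had 7 of 30 further hydrolases and luminal proteins called higher and 6 lower, against 26 and 8 of the 48. Calls leaned lower in AU565 (8 and 16) and SKBR3 (7 and 16), higher in 94T778 (11 and 7), and were even in SKMEL28 (9 and 9). Medians of 10 other V-ATPase isoforms lay above those of these hydrolases in 94T778 (0.32 against 0.19), A375 (0.13, -0.05) and AU565 (-0.02, -0.33). They lay below in SKBR3 (-0.87, -0.40) and SKMEL28 (-0.37, -0.06). On the average of the 5 lines the picture was mixed. Of 30 further hydrolases and luminal proteins tested, 11 rose and 16 fell (28.4% and 28.1% of all genes tested), with the sialic acid esterase SIAE at 1.34 (SE 0.05, edgeR adjusted p = 3.20e-22), the ganglioside activator GM2A at -1.02 and the beta-galactosidase GLB1 at -0.69. Of 21 further membrane proteins, 9 rose and 4 fell, with LAPTM4B at -0.84, the endolysosomal cation channel TPCN1 at 0.87 and the chloride exchanger CLCN7 at 0.40. Of 10 other V-ATPase isoforms, 2 rose and 4 fell, with ATP6V0E2 at -0.62, ATP6AP1L at 0.83 and TCIRG1, an a-subunit isoform, at -0.31. Of 10 pump assembly factors, 4 rose and 3 fell, among them DMXL1 (0.47), CCDC115 (0.43) and WDR7 (-0.47). Of 11 genes that tag hydrolases with mannose 6-phosphate or deliver them, 5 rose and 3 fell, among them the receptor IGF2R (0.57), the phosphotransferase subunit GNPTG (0.49) and the sorting receptor SORT1 (-0.54).

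The transcripts of the factors that bind TCACGTGA followed no shared course. MITF counted 920.3 and 861 CPM with torkinib, against 502 and 539 CPM untreated in SKMEL28 and 21.1 and 22.8 CPM with torkinib, against 6.69 and 5.89 CPM untreated in AU565, and rose in both (0.77 and 1.795, edgeR adjusted p = 1.95e-09 and 3.08e-10). In A375 all 3 tested factors fell: MITF by 0.74, TFEB by 1.38 and TFE3 by 1.11 on the log2 scale. TFEB there rested on 11 counts with torkinib and 41 untreated. In SKBR3 MITF counted 7.94 and 9.56 CPM with torkinib, against 2.02 and 6.30 CPM untreated, a rise of 1.01 (edgeR adjusted p = 0.00197), and TFEB fell (-1.09). The untreated counts of MITF there were 11 and 43, the 43 in the SKBR3 library with counts of SKMEL28 genes. Calls of these factors were not checked with libraries left out. TFE3 rose in 94T778 (0.34) and fell in AU565 (-0.34); TFEC had too few reads to test, with 13 counts in all libraries. Nuclear location, through which MTOR acts on TFEB and TFE3, was not measured.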

How the data were processed

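RNA of the 20 libraries was extracted, per the labels' protocols, with a Qiagen column kit (RNeasy midi). Each deposited file holds raw counts per gene, made by the authors without normalisation. The submitters' processing notes list HISAT2, HTSeq 0.6.1 and limma 3.34.9 with hg19 (GRCh37) as the build; the annotation and the handling of strand are not stated in the notes or labels. The counter's summary lines stayed out, and counted reads were 47.8 to 62.4% of the total per library.

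R 4.3.3 and edgeR 4.0.16 were used (TMM factors, filterByExpr, 10 group means in 1 model, quasi-likelihood test, Benjamini-Hochberg at 0.05 over 16698 genes; common biological coefficient of variation 0.0547, residual degrees of freedom 10). Each SE is the absolute log2 change divided by the square root of its F statistic. Lineage marker sums use CPM without TMM factors.

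Members and lists were chosen with earlier results of these data known. Genes with values in every library were the 5 with the smallest average p in each class, the 6 with the smallest p for a difference among lines and opposite calls, and the largest called rise and fall of each line. Of the other lists the 3 smallest average p are named, and MITF, TFEB, TFE3 and TFEC; other members have their changes only. Separate cultures are not stated for the replicates, and the p-values reflect differences between libraries that could be technical. Exons of 23 members overlap another gene in GENCODE 29 (GRCh38, used only for names and overlaps), and 6 have named pseudogenes. Of the 23, 10 overlap a protein coding gene on the opposite strand: IDUA, SGSH, GALNS, CLN3, NPC1, NPC2, LIPA, CTSA, ATP6V1D and ATP6V1F. With the handling of strand not stated, their reads may be shared or lost. Alternatives were other scaling, no filter, DESeq2 1.42.0, limma-voom 3.58.1, a replicate block, each line alone and each library left out.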

Additional observations from a re-analysis of the deposited data

Results flagged for a closer look

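The response to torkinib differed among the 5 lines for 47 of the 48 genes (68.4% of all genes tested), and among A375, SKMEL28 and AU565, at the same dose, for 43 (52.5%). Each count comes from edgeR's F test of the difference itself. The 6 genes with opposite calls and the smallest p stood out by the same test over the 5 lines. The edgeR adjusted p was 5.7e-16 for GAA, with the breast lines opposed to each other, and 7.35e-15 for the pump subunit ATP6V0C. It was 1.65e-14 for CTSD, 1.71e-12 for CTSH and 1.75e-12 for HEXA. It was 5.52e-12 for CTSS, the 1 of the 6 that was higher in both breast lines and lower in the other 3 lines. Dose and line cannot be told apart for 94T778 and SKBR3.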

How the results depend on the processing

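Of 195 calls of members in single lines or on the average, none changed direction under any alternative. Kept were 193 with DESeq2's size factors, 188 without scaling factors, 180 without a filter, 185 with DESeq2 and 192 with limma-voom, and 152 of 160 with each line fitted alone. Deviations of same-numbered libraries had a correlation of 0.29 in SKBR3 and of -0.126 to -0.00387 in the other lines. With the replicate block all 195 calls were kept and 3 were added, with 23 members higher and 10 lower in 94T778. A crossed block in 94T778 and A375, chosen after seeing the data, gave 25 and 11 in 94T778. With each line fitted alone, the pump median minus that of the others was -0.0644 in SKBR3 and -0.116 in AU565; the cause was not tested. With 1 library left out, members called higher ranged from 20 to 25 in 94T778, 17 to 28 in A375, 15 to 18 in SKMEL28, 7 to 10 in SKBR3 and 7 to 11 in AU565, and called lower from 8 to 11, 6 to 9, 9 to 17, 15 to 20 and 20 to 24. The pump median minus that of the others then ranged from -0.372 to -0.279 in 94T778, 0.0182 to 0.0781 in A375, -0.406 to -0.359 in SKMEL28, -0.158 to -0.0633 in SKBR3, -0.215 to -0.0651 in AU565 and -0.226 to -0.145 on the average. Where 1 library of a group is left out, the lone one is assumed to vary like the other groups. Depth limits IDUA and CTSK in the breast lines, and intervals cover counting error only.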
